A study of Mus musculus with 9 samples.

Results

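HT22 is an immortalised mouse hippocampal neuronal line, and 40 of its genes for making, storing and burning fatty acids were followed here in 9 libraries. They were picked by gene symbol to cover known roles, by a rule that uses no measured value but was written with earlier results of these data known, and are 40 of the 29756 entries of the deposited expression table. By role they are 5 synthesis genes, 8 desaturation and elongation genes, 6 activation and carrier genes, 11 storage and lipolysis genes and 10 genes of mitochondrial oxidation. All 40 had an entry, and 35 passed the filter for testing (1 FPKM or more in 3 or more libraries). FPKM is a fragment count divided by gene length and by the mapped fragments of the library.

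The labels name 3 groups of 3 libraries each, an experimental, an intervention and a control group, all of the same line. Hemin, the ferric chloride form of heme, and PPP8, described there as bioactive micelles, appear in the series title. Which cultures were given either agent, and for how long, is not stated, so the groups keep their label names. Whether replicates were grown as separate cultures is not stated either, so each p-value reflects library-to-library spread that may be technical.

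Fatty acids are built in the cytosol from acetyl-CoA, which is carboxylated to malonyl-CoA and then joined into chains by fatty acid synthase. Desaturases and elongases reshape the chains, acyl-CoA synthetases activate them, and acyltransferases store them as triglyceride in lipid droplets. Lipases release them again, and the carnitine shuttle carries them into mitochondria for beta-oxidation. Much of the building side is controlled by the SREBP transcription factors, while PPAR factors control much of storage and oxidation. In brain, fatty acids serve mainly as membrane lipids, and neurons burn few of them.

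Promoter sequences are shown for Fasn and Acly, which encode the synthase and the enzyme that supplies its acetyl-CoA, because both genes were lower in the experimental and intervention groups. The stretch between Hadha and Hadhb is shown because these genes, which encode both subunits of one enzyme complex, start back to back and were both lower too. Sequences are from RefSeq on GRCm38.p6, the build of mm10, written 5′ to 3′. The Hadha to Hadhb stretch is bounded by the starts of the GENCODE M21 annotation. RefSeq windows before the starts reach 30154981 for Hadha and 30155252 for Hadhb, so the RefSeq starts lie farther apart. Capitals mark matches, on either strand, to CCAAT (bound by NF-Y) or GGGCGG (a GC box).
Fasn, 250 bases before the start, minus strand, chr11:120824548-120824797: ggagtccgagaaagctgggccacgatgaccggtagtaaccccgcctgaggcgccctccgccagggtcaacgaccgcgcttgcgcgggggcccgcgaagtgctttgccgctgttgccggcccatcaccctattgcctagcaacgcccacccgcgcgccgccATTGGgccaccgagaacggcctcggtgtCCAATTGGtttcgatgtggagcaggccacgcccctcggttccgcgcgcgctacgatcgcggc
Acly, 250 bases before the start, minus strand, chr11:100528001-100528250: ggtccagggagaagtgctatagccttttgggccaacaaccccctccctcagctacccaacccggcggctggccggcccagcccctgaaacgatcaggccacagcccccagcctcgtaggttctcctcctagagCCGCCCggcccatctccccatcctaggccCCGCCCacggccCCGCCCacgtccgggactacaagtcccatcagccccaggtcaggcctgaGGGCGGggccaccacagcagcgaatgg
Hadha to Hadhb, the 85 bases between the annotated starts, plus strand, chr5:30155163-30155247: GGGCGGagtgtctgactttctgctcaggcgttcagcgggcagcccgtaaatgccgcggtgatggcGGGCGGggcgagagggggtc

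Fasn held 3 matches to CCAAT, with a pair that overlap, and no GC box. Acly held 4 GC boxes, and the Hadha to Hadhb stretch held 2. RefSeq windows of 250 bases before a start were available for 33 of the 40 members, and a gene with several starts was counted once. Scd1, Scd2, Fads1, Fabp5, Dgat1, Dgat2 and Decr1 had no window and were not searched. CCAAT was found in 17 of these 33 (51.5%) and in 37.5% of 27025 genes, and GGGCGG in 20 (60.6%) and in 35.4% of genes. CACGTG (an E-box) was found in 3 members, against 6.86% of genes. TCACNCCAC, a form of the sterol regulatory element that SREBPs bind, was found in 1 member, Acsl1, and in 1.22% of genes. The Acsl1 match lay in its window at chr8:46490716-46490965, and its window at chr8:46470787-46471036, before the annotated gene start, had none. A match is only a description of these letters.

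Each library's FPKM summed to between 316912 and 339943, and sequencing depth is unknown, since FPKM keeps no read number. Of 11974 genes that passed the filter, 8856 differed between experimental and control libraries at an adjusted p under 0.05 (2809 higher, 6047 lower). After median-ratio scaling, which centres the typical gene, the split was 4380 higher and 4357 lower. That scaling put the median over all genes at 0.003 log2 units, where it had been -0.21. Of 12 neuron markers, only Tubb3, Syn1, Camk2a, Dlg4 and Eno2 reached the filter, while Rbfox3, Map2 and Dcx lay between 0 and 0.22 FPKM in every library. The fibroblast genes Col1a1 and Col1a2 lay between 43.6 and 306 FPKM. Of 6 adipocyte markers, Adipoq and Fabp4 had an entry, and their sum was at most 0.06 FPKM in any library.

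Summed markers of some cell types differed between the groups. The 6 fibroblast and mesenchymal markers, 5 of which passed the filter, summed to 167 to 172 FPKM in experimental, 164 to 175 FPKM in intervention and 433 to 546 FPKM in control libraries. The 12 neuron markers summed to 17.9 FPKM in each experimental library, 14.0 to 16.0 FPKM in intervention libraries and 22.8 to 29.2 FPKM in control libraries. Tubb3, the most abundant of them, went the other way, averaging 8.41 FPKM in experimental and 7.12 FPKM in control libraries. Syn1, Dlg4 and Eno2 averaged 3.02, 2.26 and 2.01 FPKM in experimental and 6.01, 3.88 and 5.34 FPKM in control libraries, while Camk2a overlapped. The 6 astrocyte markers summed to at most 7.04 FPKM, the 6 microglia markers to at most 11.3 FPKM and the 6 oligodendrocyte markers to at most 1.93 FPKM in any library, each maximum in a control library. The oligodendrocyte sums overlapped between all groups. Most of the microglia sum in control libraries came from Tmem119, at 9.48 to 11.09 FPKM. The part of these markers in the results below was not tested.

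The first comparison, of experimental with control cultures, asked how fatty acid genes stood in the experimental group. Most of the pathway was lower: 28 of the 35 tested members fell, 2 rose and 5 did not pass the test. Of synthesis genes, 4 of 4 tested fell, and the falls were 6 of 8 for desaturation and elongation, 3 of 4 for activation and carriers, 6 of 9 for storage and lipolysis, where 2 rose, and 9 of 10 for oxidation. Acss2, counted among those synthesis genes, passed the filter only through control libraries. Across all tested genes 74% were called, 50.5% lower and 23.5% higher, so a fall was also the commonest outcome in the background. Single members did not overlap between these groups in 30 of 35 cases, 27 below and 3 above control, beside 76.2% of all tested genes (51.5% below and 24.7% above). The members' median was -0.83 log2 units, against -0.21 for all genes. After median-ratio scaling the counts were 24 lower and 7 higher, with a median of -0.58 against 0.003 for all genes. Every difference here is on the log2(FPKM + 1) scale from limma with Benjamini-Hochberg adjustment, and is the first group named minus the other.

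By role, the median difference of experimental from control was -0.83 for synthesis, -0.84 for mitochondrial oxidation, -0.70 for desaturation and elongation, -0.66 for activation and carriers, and -0.33 for storage and lipolysis. After median-ratio scaling the same medians were -0.58, -0.60, -0.44, -0.42 and -0.09. Summed FPKM, which the most abundant members dominate, was 181 ± 0.455 in experimental and 324 ± 27.6 in control libraries for synthesis (SD, n = 3 each). For oxidation the sums were 153 ± 5.98 and 236 ± 9.37 FPKM, and for storage and lipolysis 125 ± 2.36 and 158 ± 4.46. In bulk RNA, fewer cells of a kind and less RNA per cell cannot be told apart.

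**Figure D1:**
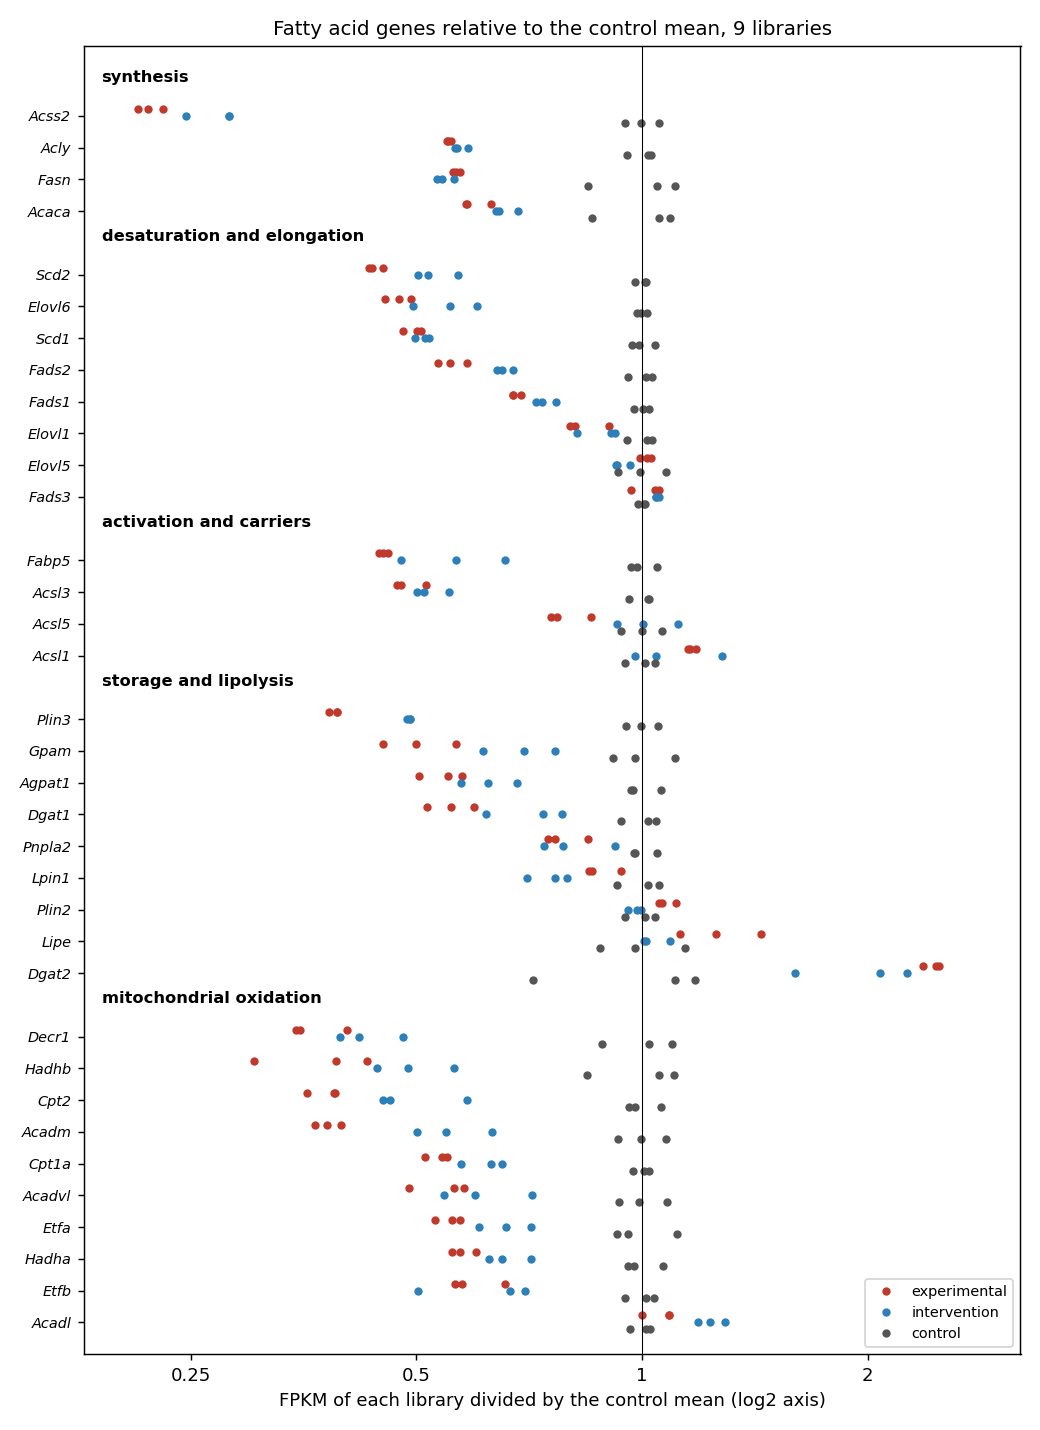
Every tested member in every library, as FPKM divided by the control mean on a log2 axis, grouped by role; red points are experimental, blue intervention and grey control libraries. Most members sit left of 1 in experimental and intervention libraries, Acss2 farthest, while Dgat2 sits at 2.44 times the control mean in the experimental group.

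Among synthesis genes, Acly encodes ATP citrate lyase, which splits citrate into acetyl-CoA. It had 90.3, 89.3 and 89.7 FPKM in experimental libraries, against 167, 155 and 165 in control libraries. The groups lay far apart, with a difference of -0.85 log2 units (SE 0.04, adjusted p = 1.45e-07), or 1.81-fold lower. Acaca, which encodes acetyl-CoA carboxylase 1, the committed step, had 9.07, 9.76 and 9.06 FPKM in experimental and 16.4, 13.3 and 16.9 FPKM in control libraries (adjusted p = 3.21e-05). Its transcripts share 30.4% of their 50-base words with pseudogenes such as Gm5182 and other genes, so its level is uncertain where reads were split.

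Fasn (chromosome 11, 120805846 to 120824547, minus strand of mm10), fatty acid synthase, had 79.7, 80.4 and 81.3 FPKM in experimental libraries and 149, 120.5 and 158 FPKM in control libraries. The groups did not overlap, although control replicate 2 was lower than the other controls, and the fall was 1.77-fold (adjusted p = 1.2e-05). Acss2, which makes acetyl-CoA from acetate, had 0.67, 0.62 and 0.64 FPKM in experimental libraries and 2.77, 3.08 and 2.91 FPKM in control libraries. This was the steepest fall by ratio among the tested members, 4.54-fold (adjusted p = 3.05e-07), at a low level. Acss2 reached 1 FPKM in control libraries only, so it was tested only through the group where it was high. Acss2 shares 9.12% of its exon bases with the genes Acss2os, Ggt7 and Gss on the opposite strand, and the use of strand is not given in the sources used here. Acacb, acetyl-CoA carboxylase 2, whose malonyl-CoA restrains carnitine palmitoyltransferase 1, did not pass the filter, at 0.48, 0.52 and 0.49 FPKM in experimental and 0.71, 0.6 and 0.93 FPKM in control libraries.

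Desaturases put unsaturated bonds into fatty acids, and Scd1 and Scd2 make oleate and palmitoleate. Scd2 (chromosome 19, 44293674 to 44306864, plus strand of mm10), the main stearoyl-CoA desaturase of mouse brain, was the most abundant member in FPKM, a level scaled to length. It had 263, 274 and 265 FPKM in experimental libraries and 615, 594 and 613 FPKM in control libraries, 2.27-fold lower (adjusted p = 7.76e-08). Scd1, its neighbour, had 43.1, 43.7 and 41.3 FPKM in experimental and 85.1, 83.5 and 89.4 FPKM in control libraries, 2.02-fold lower (adjusted p = 8.17e-08). Only 4.56% of the 50-base words of Scd1 transcripts occur in other genes, Scd2 among them, so the pair can largely be told apart.

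The front-end desaturases make polyunsaturated fatty acids. Fads1, the delta-5 desaturase, had 71.7, 73.7 and 71.9 FPKM in experimental and 107, 104 and 109 FPKM in control libraries (adjusted p = 1.56e-06). Fads2, the delta-6 desaturase, had 92.6, 101 and 96.1 FPKM in experimental and 179, 166 and 176 FPKM in control libraries, 1.79-fold lower (adjusted p = 3.22e-07). Their neighbour Fads3 lies 2654 bases from Fads2 on chromosome 19 and did not pass the test. Its values of 24.2, 25.98 and 26.3 FPKM in experimental and 25.1, 24.7 and 25.2 FPKM in control libraries overlapped (adjusted p = 0.615), although it passed as higher under median-ratio and quantile scaling.

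Elongases lengthen the chains. Elovl6, which takes palmitate to stearate, had 18.2, 17.5 and 16.7 FPKM in experimental and 36.4, 37.5 and 36.8 FPKM in control libraries, 2.11-fold lower (adjusted p = 5.08e-07). Elovl5, which lengthens polyunsaturated chains, had 32.4, 32.03 and 31.3 FPKM in experimental and 31.3, 33.9 and 29.3 FPKM in control libraries, which overlapped (adjusted p = 0.756), and it passed as higher under median-ratio scaling. Elovl1, which makes very long saturated chains, had 43.3, 48.8 and 43.95 FPKM in experimental and 55.7, 54.9 and 51.6 FPKM in control libraries. That fall was small (adjusted p = 0.005), and it disappeared after median-ratio scaling, at -0.0011 log2 units (adjusted p = 0.986).

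**Figure D2:**
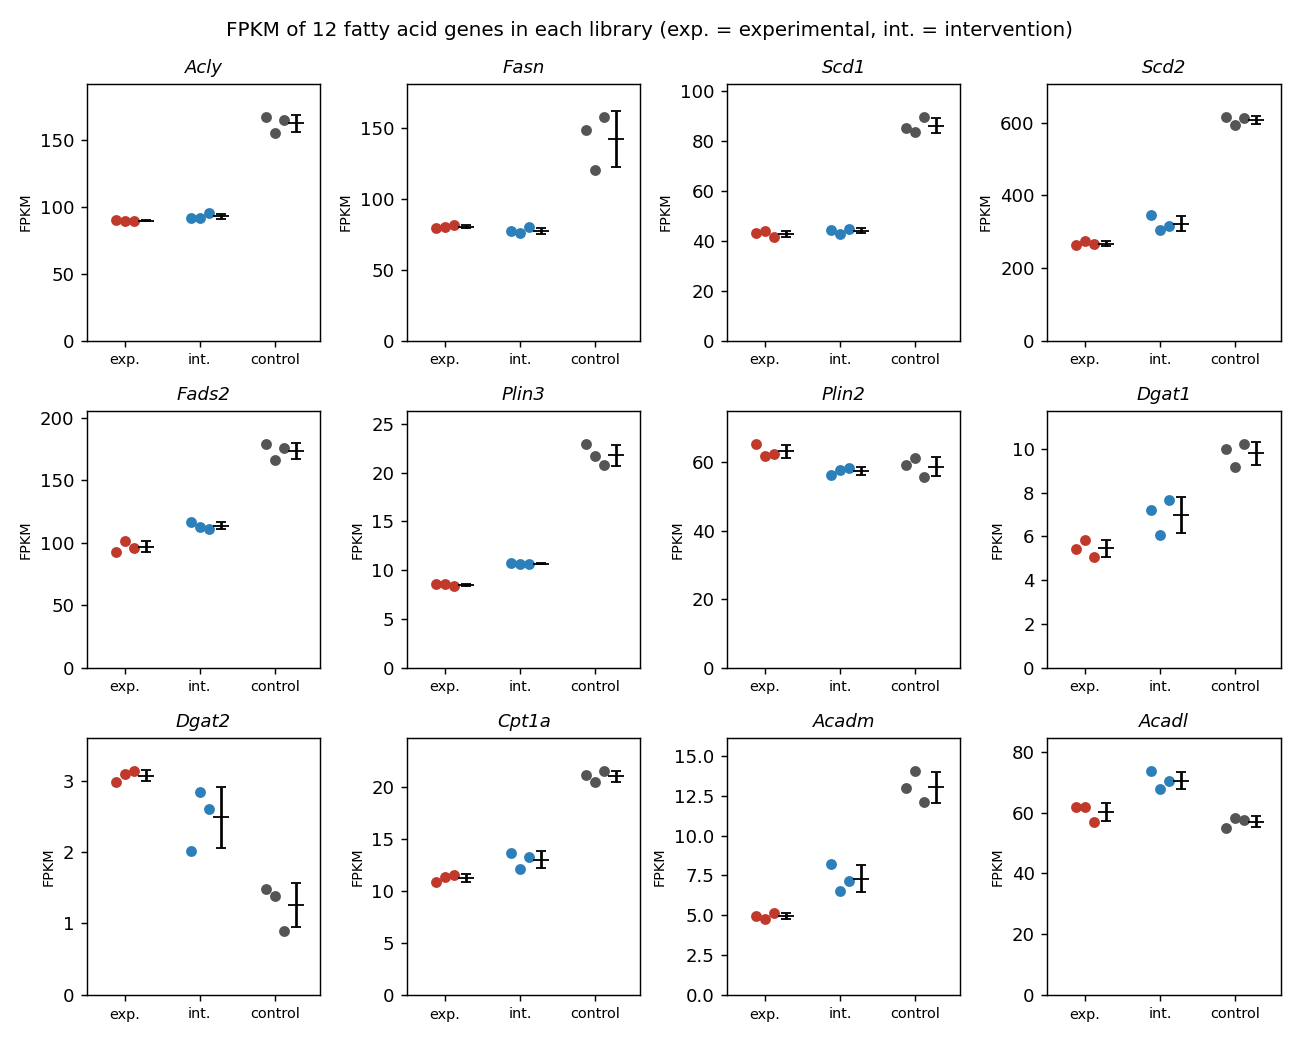
FPKM of 12 members in each library, by group, with a bar for the mean and SD of 3 libraries; each vertical axis starts at 0. Acly, Fasn, Scd1, Scd2, Fads2, Plin3, Dgat1, Cpt1a and Acadm are lower in experimental than in control libraries, Dgat2 is higher, and Plin2 and Acadl did not pass the test except under median-ratio scaling (higher) and, for Plin2, without control replicate 2.

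Acyl-CoA synthetases activate free fatty acids. Acsl3, which works at the endoplasmic reticulum and lipid droplets, had 21.97, 20.3 and 20.1 FPKM in experimental and 43.5, 43.5 and 41.04 FPKM in control libraries, 2.05-fold lower (adjusted p = 2.1e-07). Acsl1, which in many tissues feeds both storage and oxidation, had 3.6, 3.52 and 3.54 FPKM in experimental and 2.9, 3.08 and 3.18 FPKM in control libraries. Its groups did not overlap, but the difference did not pass the test (adjusted p = 0.0795). It passed as higher in 4 of 16 alternatives, including median-ratio and quantile scaling, only these groups in the fit, and the fit without intervention replicate 2. Acsl5 had 19.5, 21.6 and 19.1 FPKM in experimental and 23.7, 26.9 and 25.3 FPKM in control libraries (adjusted p = 0.00352). Median-ratio scaling ended that call (adjusted p = 0.317). Fabp5, a cytosolic fatty acid carrier of the nervous system and skin, had 8.85, 8.97 and 9.1 FPKM in experimental and 19.2, 20.8 and 19.6 FPKM in control libraries, 2.21-fold lower (adjusted p = 2.72e-06). Acsl6, at 0.18 to 0.49 FPKM, and Fabp3, the heart-type carrier, at 0 to 0.44 FPKM over the 9 libraries, did not pass the filter.

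Triglyceride is assembled on glycerol phosphate in successive steps. Gpam, the mitochondrial enzyme that adds the first fatty acid to glycerol phosphate, had 3.46, 4.33 and 3.83 FPKM in experimental and 7.49, 7.01 and 8.48 FPKM in control libraries, 1.98-fold lower (adjusted p = 2.11e-05). Agpat1, which adds the next one, had 16.7, 17.4 and 15.3 FPKM in experimental and 32.1, 29.4 and 29.5 FPKM in control libraries (adjusted p = 2.94e-06). Lpin1, the phosphatase that follows, had 7.51, 7.45 and 8.22 FPKM in experimental and 9.25, 8.11 and 8.94 FPKM in control libraries. These overlapped, and the call (adjusted p = 0.0491) was lost in 10 of 16 alternatives while the sign turned in 2 more.

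The last step joins the final acyl chain to diacylglycerol, and it is made by a pair of unrelated enzymes. Dgat1 had 5.44, 5.85 and 5.06 FPKM in experimental and 9.98, 9.18 and 10.2 FPKM in control libraries, 1.8-fold lower (adjusted p = 1.87e-05). Dgat2 (chromosome 7, 99153658 to 99182719, minus strand of mm10), which works on lipid droplets, had 2.98, 3.1 and 3.13 FPKM in experimental and 1.48, 1.39 and 0.9 FPKM in control libraries. It was 2.44-fold higher, by 0.86 log2 units (SE 0.12, adjusted p = 7.98e-05), and rose also after median-ratio, quantile and same-sum scaling.

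Perilipins coat lipid droplets. Plin3, a coat protein that moves between cytosol and droplets, had 8.54, 8.54 and 8.34 FPKM in experimental and 22.9, 21.7 and 20.8 FPKM in control libraries, 2.57-fold lower. It had the smallest adjusted p of the members, 3.68e-08. Plin2, the coat protein that marks droplets in most cells, had 65.2, 61.8 and 62.3 FPKM in experimental and 59.2, 61.1 and 55.8 FPKM in control libraries (adjusted p = 0.0708). All experimental values of Plin2 were above all controls, by little, and the gene passed as higher under median-ratio scaling and without control replicate 2.

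Lipases showed smaller differences. Pnpla2, adipose triglyceride lipase, which starts lipolysis, had 13.4, 15.1 and 13.6 FPKM in experimental and 18.7, 17.4 and 17.4 FPKM in control libraries (adjusted p = 0.00377). Under median-ratio scaling it no longer passed (adjusted p = 0.314). Lipe, hormone-sensitive lipase, had 3.13, 2.73 and 2.44 FPKM in experimental and 2.13, 1.91 and 2.48 FPKM in control libraries (adjusted p = 0.0295). Its groups overlapped, it shares 15.6% of its exon bases with an opposite-strand gene, and its call as higher was lost in 7 of 16 alternatives (adjusted p up to 0.12). Those 7 include leaving out experimental replicate 1 or 2, or control replicate 1 or 2. Mgll, monoglyceride lipase, and Agpat2, an acyltransferase of adipose tissue, did not pass the filter, at no more than 0.1 and 0.07 FPKM in any library.

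Carnitine palmitoyltransferases carry long chains into mitochondria. Cpt1a, the gate of the pathway, had 10.8, 11.3 and 11.6 FPKM in experimental and 21.1, 20.4 and 21.5 FPKM in control libraries, 1.87-fold lower (adjusted p = 5.62e-07). Cpt2, its partner on the inner membrane, had 6.39, 6.96 and 6.97 FPKM in experimental and 18.98, 17.5 and 17.2 FPKM in control libraries, 2.64-fold lower (adjusted p = 6.92e-07).

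Acyl-CoA dehydrogenases take the first step of each oxidation cycle, sorted by chain length. Acadm, for medium chains, had 4.95, 4.77 and 5.17 FPKM in experimental and 12.98, 14.03 and 12.1 FPKM in control libraries, 2.63-fold lower (adjusted p = 5.66e-07). Acadvl, for very long chains, had 14.1, 14.6 and 12.3 FPKM in experimental and 24.9, 27.1 and 23.4 FPKM in control libraries (adjusted p = 2.77e-05), and shares 42.9% of its exon bases with Dvl2 on the opposite strand. Acadl, for long chains, was the 1 oxidation gene that did not fall. It had 62.05, 61.99 and 57 FPKM in experimental and 55.02, 58.5 and 57.8 FPKM in control libraries, and these overlapped (adjusted p = 0.198). Under median-ratio scaling it passed as higher. Its level in control libraries was also the highest of the 10 oxidation genes.

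The trifunctional protein carries out the remaining steps on long chains, and its subunits are encoded by Hadha and Hadhb. The stretch between their GENCODE M21 starts is printed above. Hadha had 10.03, 10.6 and 9.8 FPKM in experimental and 18.7, 17.1 and 16.8 FPKM in control libraries, 1.73-fold lower (adjusted p = 2.67e-06). Hadhb had 2.8, 2.55 and 1.98 FPKM in experimental and 5.51, 7.2 and 6.87 FPKM in control libraries, 2.67-fold lower (adjusted p = 1.06e-05). Its transcripts share 19.7% of their 50-base words with other genes, pseudogenes such as Gm13910 first among them. The other oxidation genes fell as well. Etfa and Etfb, the flavoprotein that takes the electrons, were 1.81-fold and 1.67-fold lower (adjusted p = 5.81e-06 and 0.000166), and Decr1, which is needed to oxidise unsaturated chains, was 2.73-fold lower (adjusted p = 2.05e-06). Of the exon bases of Etfb, 58.2% are shared with Gm45233 and Mir7051.

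Because related genes differed in the size or direction of their change, their ratio was taken within each library, where any scaling between libraries cancels. These 13 pairs were chosen after the values were seen. Plin3 over Plin2 was 0.131, 0.138 and 0.134 in experimental libraries and 0.387, 0.356 and 0.372 in control libraries. Dgat1 over Dgat2 was 1.83, 1.89 and 1.62 in experimental libraries and 6.74, 6.6 and 11.3 in control libraries. The ratio of Acadm to Acadl was 0.0798, 0.0769 and 0.0907 in experimental libraries and 0.236, 0.24 and 0.209 in control libraries. In each of these pairs the experimental and control libraries were far apart and did not overlap.

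The ratio of Acsl3 to Acsl1 averaged 5.86 ± 0.219 in experimental and 14.01 ± 1.04 in control libraries (SD, n = 3 each), and that of Fads2 to Fads3 3.79 ± 0.126 and 6.94 ± 0.189. For Elovl6 over Elovl5 the averages were 0.547 ± 0.0129 in experimental and 1.18 ± 0.0759 in control libraries. By contrast, Fasn over Cpt1a, a synthesis gene over an oxidation gene, averaged 7.17 ± 0.19 in experimental and 6.76 ± 0.769 in control libraries, and these overlapped. Of the 13 ratios, 11 did not overlap between these groups, which the choice of pairs largely fixed. With 3 libraries against 3, an exact 2-sided permutation test cannot go below p = 0.1, which these 11 reached, and the smallest value adjusted over all 39 ratio comparisons was 0.139, so none passed.

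**Figure D3:**
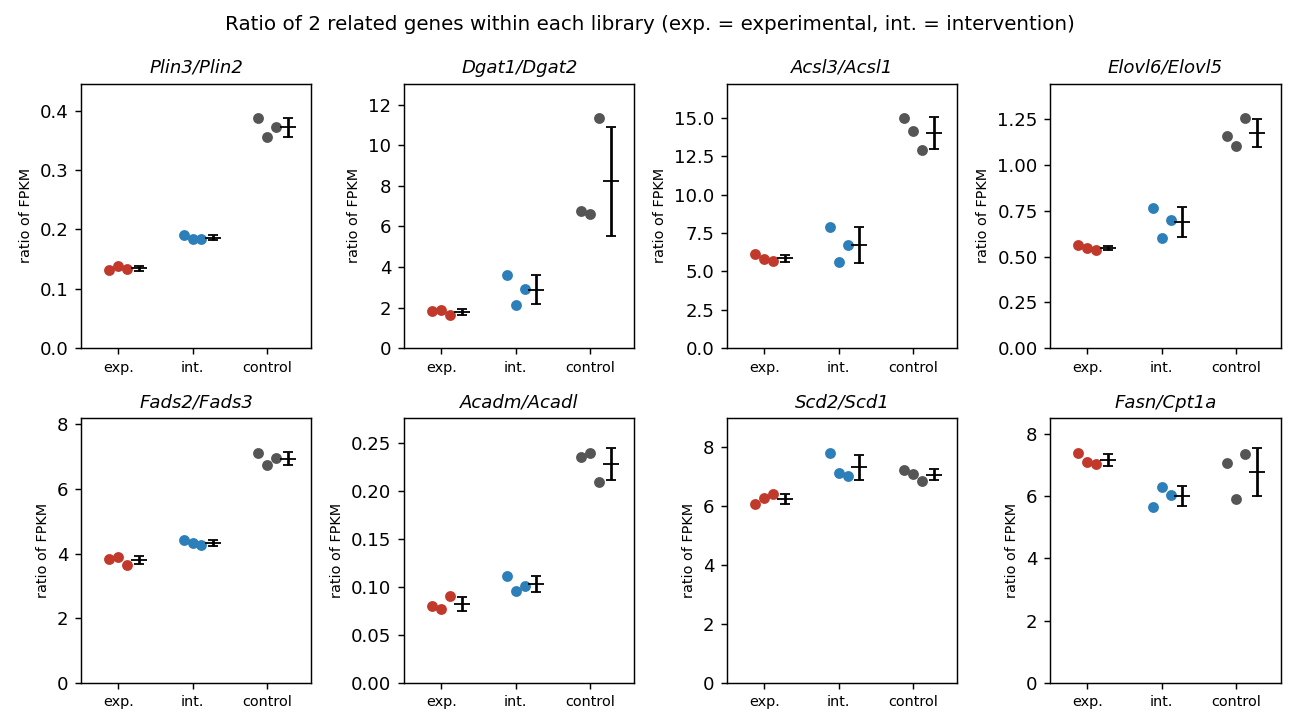
Ratio of FPKM of related genes within each library, by group, with the mean and SD of 3 libraries; each vertical axis starts at 0. The first 6 ratios are lower in every experimental and intervention library than in any control library, while Fasn over Cpt1a overlaps between experimental and control libraries.

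Other genes of the pathway were read from 6 lists, of which 86 genes passed the filter. Among these, 54 fell and 15 rose in experimental against control libraries, beside 50.5% lower and 23.5% higher of all tested genes. After median-ratio scaling 45 fell and 24 rose, beside 4357 lower and 4380 higher of all 11974 tested genes. Without that scaling, the median of the 86 was -0.44 log2 units, against -0.21 for all genes. Peroxisomal oxidation, which shortens very long chains, fell in 11 of 11 cases (10 of 11 after median-ratio scaling), with Hsd17b4 at 8.92 ± 0.768 FPKM in experimental and 19.4 ± 1.14 FPKM in control libraries (SD, n = 3 each, adjusted p = 7.64e-07). Amacr, which prepares branched chains, was 3.1-fold lower (adjusted p = 2.4e-06). Of 18 other mitochondrial oxidation genes tested, 16 were lower and 0 higher. Among them, Pccb and Mmut, which dispose of propionate from odd chains, were 2.89-fold and 2.77-fold lower, and Acat1, a mitochondrial thiolase, 2.18-fold lower (adjusted p at most 1.27e-06).

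Of 13 other storage genes tested, 5 rose and 3 fell, beside 23.5% higher and 50.5% lower of all tested genes. After median-ratio scaling 9 rose and 2 fell, beside 4380 higher and 4357 lower of all 11974 tested genes. Gpat3, an endoplasmic reticulum enzyme that catalyses the same step as Gpam, had 16.2, 12.6 and 14.5 FPKM in experimental and 5.09, 5.29 and 4.27 FPKM in control libraries, 2.96-fold higher (adjusted p = 1.11e-05). Fitm2, which helps lipid droplets form, was 2.05-fold higher (adjusted p = 7.67e-07). Plin4, another perilipin, fell, at 1.54, 1.67 and 1.28 FPKM in experimental and 14.2, 10.8 and 14.8 FPKM in control libraries (adjusted p = 2.66e-07).

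Of 20 regulators tested, 12 fell and 4 rose, near the background of 50.5% lower and 23.5% higher. After median-ratio scaling 10 fell and 7 rose, beside 4357 lower and 4380 higher of all 11974 tested genes. Srebf1, which encodes the SREBP that drives fatty acid synthesis, averaged 10.2 ± 0.586 FPKM in experimental and 14.9 ± 0.786 FPKM in control libraries (SD, n = 3 each, adjusted p = 4.18e-05). Srebf2, for the cholesterol arm, averaged 57.2 ± 1.62 and 104 ± 4.48 FPKM (adjusted p = 2.41e-07). Insig1, which retains SREBPs in the endoplasmic reticulum and is itself their target, was 2.24-fold lower (adjusted p = 2.12e-07). Ppard, a fatty acid-sensing nuclear receptor, was 2.24-fold higher, and Trib3, a stress-induced pseudokinase, 2.05-fold higher (adjusted p = 2.69e-06 and 8.21e-08).

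Among the remaining enzymes, 2 of 12 synthesis and elongation genes rose and 5 fell, shares no higher than the 23.5% higher and 50.5% lower of all tested genes. After median-ratio scaling 4 rose and 3 fell, again no higher than the shares of all tested genes, 4380 higher and 4357 lower of 11974. Me1, malic enzyme, which makes NADPH for lipid synthesis and is also an NRF2 target, was 1.87-fold higher (adjusted p = 1.99e-07), at 37.3 ± 1.26 FPKM in experimental and 19.98 ± 0.681 FPKM in control libraries. Of 12 activation, uptake and carrier genes, 4 rose and 7 fell, or 4 and 5 after median-ratio scaling, near the background of each setting. Acot2, a mitochondrial thioesterase, was 3-fold higher, and Acsbg1, an acyl-CoA synthetase, averaged 1.58 ± 0.246 and 0.403 ± 0.28 FPKM in these groups (adjusted p = 1.48e-07 and 0.000379). Acsbg1 reached 1 FPKM in no control library, so it passed the filter only through groups where it was high. Slc27a1, a fatty acid transporter, was 2.33-fold lower (adjusted p = 2.13e-07). Acsl4, which activates arachidonate, averaged 26.9 ± 1.05 FPKM in experimental and 33.7 ± 1.79 FPKM in control libraries (adjusted p = 0.000312), and missed the threshold under median-ratio scaling (adjusted p = 0.305).

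Intervention libraries were then compared with experimental libraries. Here 10 of the 35 tested members rose, 0 fell and 25 did not pass the test, while 19.5% of all tested genes passed, 15.9% higher and 3.6% lower. Those that rose were Acadm, Acadl, Cpt1a and Cpt2 of oxidation, Scd2 and Fads2 of desaturation, Gpam, Dgat1 and Plin3 of storage, and Acsl5. None of the 4 synthesis genes passed. The members' median was 0.15 log2 units, against 0.095 for all genes. These experimental libraries also served in the first comparison, so the differences are not independent of each other.

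This count rests on single libraries and on scaling. It was 5 without intervention replicate 3, and 0 without experimental replicate 1, experimental replicate 3 or intervention replicate 1. In the fits with 0, 17, 15 and 14 members had an unadjusted limma p under 0.05, beside 3355, 3375 and 3161 of all 11974 tested genes. Of all tested genes, only 1, 4 and 6 were called in those fits. With no filter on low values the count of members was 2. After median-ratio scaling Acadm and Plin3 were higher and Elovl5, Lpin1 and Plin2 lower, beside 567 higher and 946 lower of all 11974 tested genes. None of the 10 calls held in all 16 alternatives, but none of the 10 turned in sign.

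Acadm rose most, with 8.23, 6.52 and 7.14 FPKM in intervention and 4.95, 4.77 and 5.17 FPKM in experimental libraries. Its groups did not overlap, at 0.47 log2 units (SE 0.08, adjusted p = 0.0151), or 1.47-fold. Acadl had 73.6, 67.8 and 70.4 FPKM in intervention and 62.05, 61.99 and 57 FPKM in experimental libraries (adjusted p = 0.0223), so the gene that had not fallen was also higher here. Cpt1a had 13.7, 12.1 and 13.2 FPKM in intervention libraries, all above the experimental values (adjusted p = 0.0412), and Cpt2 had 8.08, 8.26 and 10.5 (adjusted p = 0.0272). The Cpt1a call was lost in 13 of 16 alternatives, those of Acadl and Cpt2 in 7 each and that of Acadm in 3.

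For Scd2, intervention libraries had 345, 305 and 314 FPKM, against 263, 274 and 265 in experimental libraries (1.2-fold, adjusted p = 0.0165). Its neighbour Scd1 had 44.1, 42.8 and 44.8 FPKM in intervention and 43.1, 43.7 and 41.3 FPKM in experimental libraries, which overlapped (adjusted p = 0.551). Within libraries, Scd2 over Scd1 was 7.81, 7.12 and 7.02 in intervention and 6.09, 6.27 and 6.43 in experimental libraries, which did not overlap. Fads2 had 117, 113 and 111 FPKM in intervention and 92.6, 101 and 96.1 FPKM in experimental libraries (1.17-fold, adjusted p = 0.0189). The calls on Scd2 and Fads2 were each lost in 5 of 16 alternatives.

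Of the storage genes, 3 rose. Plin3 had 10.7, 10.6 and 10.7 FPKM in intervention and 8.54, 8.54 and 8.34 FPKM in experimental libraries, a narrow spread in both groups (1.26-fold, adjusted p = 0.0151). Gpam had 5.86, 5.33 and 4.7 FPKM and Dgat1 7.23, 6.06 and 7.65 FPKM in intervention libraries, 1.37-fold and 1.28-fold above the experimental mean (adjusted p = 0.0281 and 0.0336). Acsl5 had 28.3, 23.4 and 25.3 FPKM in intervention libraries, 1.28-fold above the experimental mean (adjusted p = 0.0214). The calls on Plin3, Gpam, Dgat1 and Acsl5 were lost in 3, 7, 10 and 6 of 16 alternatives.

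Of the 4 synthesis genes tested, Acly, Acaca and Acss2 had every intervention library above every experimental library, and none passed the test. Fasn had 77.04, 75.8 and 79.9 FPKM in intervention and 79.7, 80.4 and 81.3 FPKM in experimental libraries, which overlapped (adjusted p = 0.681). Acly had 91.5, 92.04 and 95.2 FPKM in intervention libraries, all just above the experimental values (adjusted p = 0.438). Acaca and Acss2 averaged 10.2 ± 0.381 and 0.787 ± 0.0577 FPKM in intervention and 9.3 ± 0.401 and 0.643 ± 0.0252 FPKM in experimental libraries (SD, n = 3 each, adjusted p = 0.301 and 0.256). Their ratios were 1.1 and 1.22. A p that misses the threshold does not show that the values were equal.

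Fasn over Cpt1a was 5.64, 6.29 and 6.05 in intervention libraries, below all 3 experimental ratios of 7.38, 7.08 and 7.03 (exact 2-sided permutation p = 0.1, the smallest possible). Dgat2 had 2.01, 2.84 and 2.61 FPKM in intervention libraries, all below the experimental values, without passing the test (adjusted p = 0.179). Groups did not overlap in 24 of the 35 tested members, 19 higher and 5 lower, beside 42.5% of all tested genes (33.7% higher and 8.79% lower).

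Of the other pathway genes, 24 of 86 rose and 4 fell in intervention against experimental libraries, beside 15.9% higher and 3.6% lower of all tested genes. After median-ratio scaling 6 rose and 6 fell, beside 567 higher and 946 lower of all 11974 tested genes. Gpat3 fell, at 7.29, 11.7 and 9.11 FPKM in intervention and 16.2, 12.6 and 14.5 FPKM in experimental libraries (adjusted p = 0.0248), and Ppard averaged 10.3 ± 1.17 and 13.1 ± 0.438 FPKM (SD, n = 3 each, adjusted p = 0.034). Those 2 calls were lost in 5 and 7 of 16 alternatives.

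**Figure D4:**
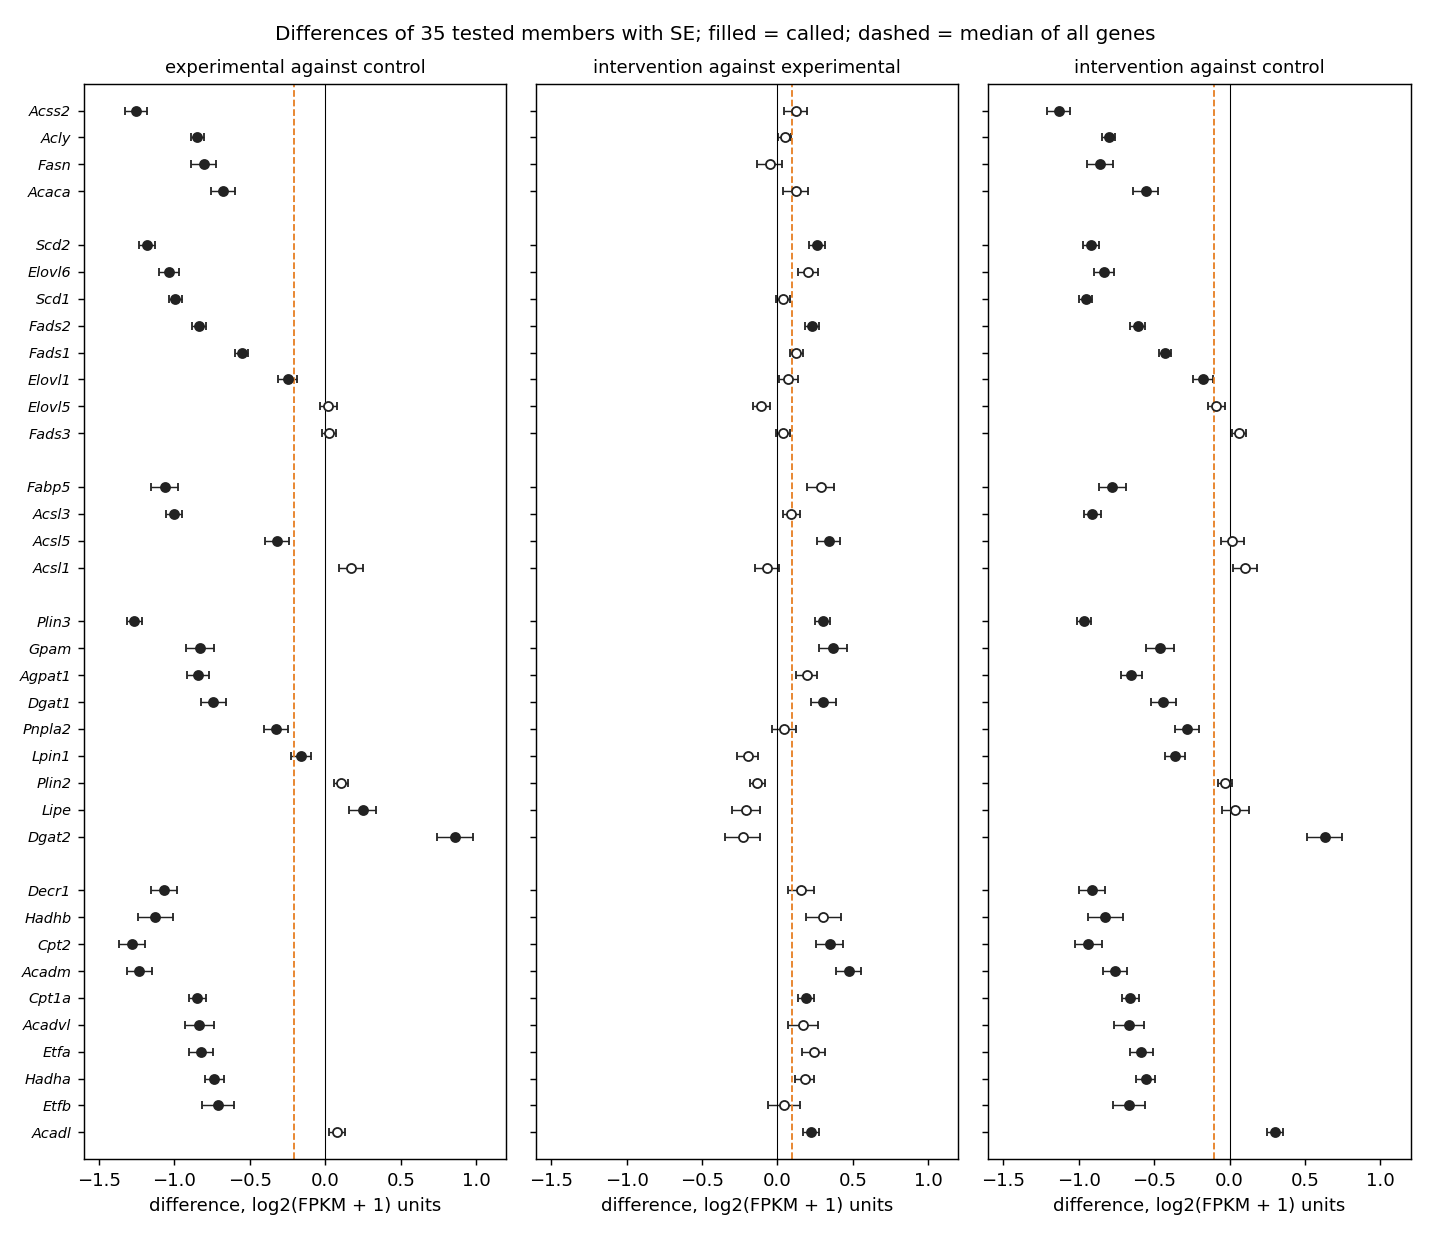
Difference of each tested member on the log2(FPKM + 1) scale in 3 comparisons, with its SE; filled points passed an adjusted p of 0.05 and the dashed line is the median of all genes. In the middle panel no synthesis gene is filled, and Acadm is farthest to the right at 0.47.

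The last comparison set the intervention group against the control group, whose libraries also served in the first. Most members were still lower: 27 of 35 fell, 2 rose and 6 did not pass the test, while 65.3% of all tested genes were called, 41.1% lower and 24.1% higher. The groups did not overlap in 30 of the 35, 27 below and 3 above control, beside 68.7% of all tested genes (42.9% below and 25.8% above). After median-ratio scaling 25 members were lower and 3 higher, beside 3876 lower and 3912 higher of all 11974 tested genes. The members' median was -0.61 log2 units, against -0.10 for all genes, and was -0.83 for synthesis, -0.67 for oxidation, -0.52 for desaturation and elongation, -0.38 for activation and carriers and -0.36 for storage and lipolysis.

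Against control means, the intervention mean of Fasn was 54.5%, of Acly 57.1% and of Acss2 26.9%, and the experimental means were 56.5%, 55.2% and 22.03%. For Acadm the intervention mean was 55.98% of control and the experimental mean 38.1%, and for Cpt2 they were 49.9% and 37.8%. Acsl5 was the 1 member that fell in experimental libraries and did not pass the test in intervention libraries, at 28.3, 23.4 and 25.3 FPKM against 23.7, 26.9 and 25.3 (adjusted p = 0.842).

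Acadl and Dgat2 were the 2 members that rose. Acadl had 73.6, 67.8 and 70.4 FPKM in intervention and 55.02, 58.5 and 57.8 FPKM in control libraries, 1.24-fold higher (adjusted p = 0.00056). Dgat2 had 2.01, 2.84 and 2.61 FPKM in intervention and 1.48, 1.39 and 0.9 FPKM in control libraries, 1.98-fold higher (adjusted p = 0.000917). Both rises were kept under all 16 alternatives tried. Lpin1 had 6.15, 6.72 and 6.96 FPKM in intervention libraries, below every control value of 9.25, 8.11 and 8.94 (adjusted p = 0.00088). Plin2, at 56.2, 57.8 and 58.4 FPKM in intervention libraries, overlapped with controls (adjusted p = 0.621).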

How the data were processed

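RNA of HT22 cells was measured in 9 libraries. The deposited table gives FPKM per gene, made by the authors on mm10, per the submitters' processing notes; no source used here names the aligner, counter, annotation or strand setting. Depth is unknown: of 8039 values above 0 of genes under 200 bases, 1295 (16.1%) lie below 1 read of a 200-million-read library, so whole reads could not be recovered.

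Groups were taken from the labels. Genes reaching 1 FPKM in 3 or more libraries (11974 of 29756 entries) were fitted as log2(FPKM + 1) with limma 3.58.1 in R 4.3.3, all 9 libraries together, with an intensity trend, 2-sided tests and Benjamini-Hochberg adjustment over all tested genes; adjusted p under 0.05 is a call. The filter admitted some genes only through groups where they were high, such as Acss2, Oxsm, Acsbg1, Decr2 and Cpt1c. Fold changes are ratios of mean FPKM, and the pseudocount makes log2 differences smaller for low genes. In a simulation of experimental against control over 11974 genes, 19, 43, 50 and 49 of 50 changed genes were recovered at 1.25, 1.5, 2 and 4-fold. Far fewer genes were changed there than were called in the data, all of them upward, with folds of FPKM + 1. Those rates therefore do not give the power of the tests on these data. Alternatives were a pseudocount of 0.1, no filter, median-ratio, quantile and same-sum scaling, only the groups compared, a replicate block, and each library left out.

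Members, lists and markers were chosen with earlier results of these data known. Values in every library were given for 14 set members, up to 3 more per role with the largest called difference of experimental from control, and the 6 members with the smallest adjusted p of intervention against experimental; other members were added after their values were seen. Other pathway genes named were up to 3 per list by the same difference, with Srebf1, Srebf2, Insig1, Me1 and Acsl4. Mecr and Cbr4 were added after their values were seen. One gene that this rule names is not reported here. Overlaps of exons and of 50-base words were counted on the GENCODE M21 annotation.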

Additional observations from a re-analysis of the deposited data

How the results depend on the processing

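Between experimental and control libraries, 25 of 30 calls on members held under all 16 alternatives, and between intervention and control libraries 27 of 29. Exceptions were Elovl1, Acsl5, Lpin1, Pnpla2 and Lipe in the first comparison, and Elovl1 and Pnpla2 in the other. Between intervention and experimental libraries 0 of 10 held under all of them. There the number of genes called was 2337, but 358 with no filter, 1513 after median-ratio scaling, 1038 after quantile normalization, 1268 with a replicate block, and 1 to 2571 when a library was left out. The number of members called was 10, but 2 with no filter, 5 after median-ratio scaling, and 0 to 14 when a library was left out. The cause was not tested.

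Signs turned in small differences. For experimental against control these were Elovl5 (-0.0435 with the same sum and -0.0296 without control replicate 3, within -0.0296 to 0.0722 over libraries left out), Fads3 (-0.0368 with the same sum) and Lpin1 (0.0639 after median-ratio and 0.0664 after quantile scaling). For intervention against experimental, median-ratio scaling gave -0.0676 for Acly, -0.0759 for Scd1, -0.0425 for Elovl1, -0.0769 for Fads3, -0.021 for Acsl3, -0.0675 for Pnpla2, -0.0673 for Etfb, -0.056 for Me1, -0.0851 for Srebf2 and -0.0587 for Trib3. Quantile scaling gave -0.0313 for Fads3, -0.0238 for Pnpla2, -0.0179 for Etfb and -0.0298 for Srebf2. With a library left out, Pnpla2 spanned -0.0429 to 0.1061 and Etfb -0.0406 to 0.1823, Acot2 -0.1196 to 0.0191 and Acsbg1 -0.1153 to 0.0701. For intervention against control, Elovl5 was 0.0438 and Plin2 0.1045 after median-ratio scaling, and Fads3 was -0.0125, Acsl5 -0.0581 and Lipe -0.0174 with the same sum. With a library left out, Acsl5 spanned -0.0503 to 0.0805, Plin2 -0.0639 to 0.0007 and Lipe -0.0212 to 0.1079.

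Libraries of the same replicate number did not visibly deviate together, with correlations of -0.182 to 0.110, beside -0.140 to 0.149 for different numbers. With 3 libraries a group, each centred on its group mean, this cannot tell whether a number marks a shared culture or batch. With the replicate block, calls numbered 8732 genes and 29 members between experimental and control libraries, 1268 genes and 7 members between intervention and experimental libraries, and 7577 genes and 28 members between intervention and control libraries. Since depth is unknown, counting error of low genes such as Acss2 and Dgat2 cannot be given.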

Other observations

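Mitochondria hold a fatty acid synthesis pathway of their own, which supplies lipoic acid. Mcat, which loads malonyl groups there, averaged 2.72 ± 0.01 FPKM in experimental, 4.08 ± 0.375 FPKM in intervention and 5.61 ± 0.32 FPKM in control libraries (SD, n = 3 each), and limma gave an adjusted p of 2.26e-06 for experimental against control. Oxsm, the condensing enzyme, averaged 0.52 ± 0.105 FPKM in experimental, 1 ± 0.0458 FPKM in intervention and 2.17 ± 0.28 FPKM in control libraries (adjusted p = 3.34e-06 for experimental against control). No experimental library reached 1 FPKM of Oxsm, so it passed the filter only through control libraries, where it was high. For intervention against experimental the adjusted p was 0.0151 for Mcat and 0.022 for Oxsm, and those calls were lost in 3 and 5 of 16 alternatives. Both were lost without experimental replicate 1, experimental replicate 3 or intervention replicate 1, and Oxsm also without intervention replicate 3 and with no filter on low values. Mecr, a reductase of this pathway, averaged 3.76 FPKM in experimental, 4.49 FPKM in intervention and 4.07 FPKM in control libraries. Its experimental values, 3.68 to 3.85 FPKM, lay below all control values, 3.89 to 4.29 FPKM. Mecr did not pass the limma test (adjusted p = 0.225 for experimental against control), so not every gene of the pathway was called lower. Cbr4, listed with these genes, averaged 0.223 FPKM in experimental and 0.91 FPKM in control libraries and did not pass the filter.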
